A study of Rattus norvegicus with 30 samples.

Results

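The comparison asks whether the difference in gene expression between rats that took methamphetamine (METH) and their yoked saline partners was the same in rats that resisted punishment as in rats that yielded to it. For each gene it is the contrast (SR − YSR) − (SS − YSS), read from the SR, YSR, SS and YSS libraries, which were chosen by their titles and make up 23 of the 30 libraries of the series. METH is a psychostimulant that releases dopamine and other monoamines. In self-administration a lever press delivers the drug, and punishing part of the presses with foot-shocks separates animals that go on pressing from animals that stop. A yoked animal receives the same shocks as its partner without control over them, so that a METH rat and a yoked rat of the same arm share the shock history but not the drug. The hippocampus is needed for memory of places and contexts and responds to drugs, stress and stress hormones. An interaction of this kind is positive when METH rats stand higher above their yoked partners in the shock-resistant arm than in the shock-sensitive arm, and negative in the opposite case.

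All rats were adult wild type Sprague Dawley rats, with 1 library per rat. Over 21 days METH was taken by lever press in SR (n = 7) and SS (n = 6) rats, and 8 days with foot-shocks followed, under which SR (shock-resistant) rats kept pressing and SS (shock-sensitive) rats pressed less. YSR (n = 5) and YSS (n = 5) rats received saline and were shocked whenever an SR or an SS rat was shocked, and which yoked rat was tied to which METH rat is not stated in the sources used here. In the titles METH rats have odd and yoked rats even numbers, and some lie next to each other, but no source says that neighbours were partners. SR and SS rats were sorted by their behaviour and not assigned at random. Per the study, SR rats received more shocks than SS rats and took more METH in the days with foot-shocks. For METH rats phenotype, shock number and METH intake therefore cannot be told apart. The labels name the dorsal striatum in the tissue field and the hippocampus in the protocol, and they place dissection 2 h after the last session, whereas the methods of the study describe whole hippocampus taken immediately after it. Another part of the study's text also gives 2 h, as the labels do, and which holds is unclear. The labelled tissue could not be checked against marker genes, since the tables hold Ensembl identifiers without gene names. Total counts lay between 16329258 and 18737037 in SR libraries (median 16946598), between 14584340 and 19997820 in YSR libraries (median 17110757), between 16202659 and 19110830 in SS libraries (median 17536540) and between 17155083 and 19181886 in YSS libraries (median 17830500). A floor of 3 counts corresponded to at most 0.206 CPM (counts scaled to a common library total), which covers counting error only. The titles carry a group code, XII or XIII, whose meaning is not explained and which is taken here as the cohort of the rat. Cohort XII supplied 4 SR, 3 YSR, 2 SS and 1 YSS libraries, and cohort XIII the others. The titles also carry a letter of unexplained meaning, L or R, and all 5 YSR libraries carry R against 4 of 7 SR, 2 of 6 SS and 2 of 5 YSS libraries.

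Libraries stood apart within their groups on the leading components of the log2 CPM values. The first component held 16.4% of the variance, and on it the YSR library XIII-R08 lay at −18.6, while the other YSR libraries lay between 11.1 and 21.4. The third component held 6.99%, and on it the SS library XII-L03 lay at 33.3, while the next SS library lay at 3.36. Both libraries were kept, and values without them are given where they moved a result. The share of counts on mitochondrial genes, a rough sign of tissue and RNA handling, was 7.88% ± 1.01 (SD, n = 7) in SR, 8.02% ± 0.706 (n = 5) in YSR, 7.79% ± 0.763 (n = 6) in SS and 7.93% ± 0.233 (n = 5) in YSS rats. These 4 ranges overlapped.

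Of 15643 genes tested with edgeR's quasi-likelihood test and cohort as covariate, 901 had an interaction with an unadjusted p-value under 0.05 (5.76% of the genes tested). Of these, 401 were positive (2.56%) and 500 negative (3.2%). Positive ones were more numerous in cohort XIII alone (241 against 204) and without YSR XIII-R10 (412 against 398). The same held when every gene with a count was tested (652 against 630) and in cohort XII alone. In the other alternatives negative ones were more numerous. After Benjamini-Hochberg adjustment edgeR listed 0 genes (0%) at 0.05, and the smallest adjusted p-value was 0.307. DESeq2, run on the same counts and design, listed 869 genes at an unadjusted p-value under 0.05 and 3 at an adjusted one, ENSRNOG00000019221, ENSRNOG00000018649 and ENSRNOG00000058276. With a change of at least 1.7-fold in addition, edgeR listed 110 genes (0.703%), 70 of them positive and 40 negative, and 169 without the YSR rat XIII-R08. In the differences that make up the contrast, 1301 genes (8.32%) passed the unadjusted threshold in SR vs. YSR and 772 (4.94%) in SS vs. YSS. With 1 library left out, SR vs. YSR had between 1000 (without YSR XII-R06) and 1773 (without YSR XIII-R08). SS vs. YSS had between 554 (without YSS XIII-L02) and 1019 (without YSS XII-R04). Without both YSR XIII-R08 and SS XII-L03 the numbers were 1825 and 834. Cohort XIII alone, with 3 SR and 2 YSR against 4 SS and 4 YSS libraries, gave 718 for SR vs. YSR and 1013 for SS vs. YSS. Cohort XII alone, with 4 SR and 3 YSR against 2 SS libraries and 1 YSS library, gave 1507 and 431. In each cohort the arm with more libraries had more genes, so that these numbers do not compare the arms. Read across the arms, 958 genes (6.12%) passed in SR vs. SS and 552 (3.53%) in YSR vs. YSS. The yoked rats were not sorted by their own behaviour, and per the study YSR rats received more shocks than YSS rats. At an adjusted p-value under 0.05, 3 genes (0.0192%) passed in SR vs. YSR, and their adjusted p-values for the interaction lay between 0.624 and 0.842. That number of 3 rested on single libraries: it was 0 without SR XIII-L09, YSR XIII-R10, YSR XII-R02 or YSR XII-R06, 5 without YSS XIII-L04, 6 without YSS XIII-R04 or YSS XII-R04, 8 without SS XIII-L05, 9 without SS XII-L03 and 14 without YSR XIII-R08. It also moved with the fit: DESeq2 listed 35 genes for SR vs. YSR, and edgeR 80 (and 4 for SS vs. YSS) with the first residual component as a further covariate, 19 without both YSR XIII-R08 and SS XII-L03, 5 with either of the other count filters, and 0 with the letter as a further covariate, in either cohort alone or with letter R alone.

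The gene with the smallest p-value, ENSRNOG00000019221, had its highest mean level in YSR rats and its lowest mean level in SR rats. It lies on chromosome 2 from 210833884 to 210839295 on the minus strand, in coordinates of the deposited tables, whose genome build is not given in the sources used here. The tables annotate it with 8 exon blocks and 1745 exonic bases, and no other annotated gene overlaps it. In SR rats its TMM-normalized level was 16.9 CPM at the lowest, 18.0 CPM at the median and 20.6 CPM at the highest. In YSR rats it was 24.7 CPM in XIII-R08, 24.1 CPM in XIII-R10, 23.5 CPM in XII-R02, 24.8 CPM in XII-R06 and 24.4 CPM in XII-R10. Every YSR rat was thus above every SR rat. In SS rats the level ran from 17.1 CPM over a median of 21.9 CPM to 25.7 CPM, and in YSS rats it was 18.8 CPM in XIII-L02, 22.9 CPM in XIII-L04, 22.5 CPM in XIII-L06, 17.7 CPM in XIII-R04 and 14.4 CPM in XII-R04. The SS and YSS ranges overlapped, with the SS rat above the YSS rat in 22 of 30 pairs, and the YSR and YSS ranges did not overlap. Group means were 18.3 ± 1.19 CPM (SD, n = 7) in SR, 24.3 ± 0.497 (n = 5) in YSR, 22.0 ± 3.15 (n = 6) in SS and 19.3 ± 3.56 (n = 5) in YSS rats. With cohort in the fit, the log2 difference was −0.42 (SE 0.08) for SR vs. YSR and 0.22 (SE 0.09) for SS vs. YSS, which gives an interaction of −0.63 (SE 0.12, adjusted p = 0.307 in edgeR). DESeq2 gave the same gene a log2 interaction of −0.63 with an adjusted p-value of 0.00656. Within cohort XIII the log2 interaction was −0.54 and within cohort XII −0.84, the latter with 1 YSS library, which is assumed to vary like the other groups.

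ENSRNOG00000018649, on chromosome 3 from 161801197 to 161812291 on the minus strand, was also highest in YSR rats, while its lowest mean was in YSS rats. It has 11 exon blocks and 2077 exonic bases, and 1 other annotated gene overlaps its span but not its exons. In YSR rats its level was 51.4 CPM in XIII-R08, 45.4 CPM in XIII-R10, 47.3 CPM in XII-R02, 55.2 CPM in XII-R06 and 44.1 CPM in XII-R10. In SR rats it ran from 24.7 CPM over a median of 29.2 CPM to 46.9 CPM, the highest value belonging to the rat XII-R07, the only SR rat inside the YSR range. In YSS rats it was 27.6 CPM in XIII-L02, 32.5 CPM in XIII-L04, 27.5 CPM in XIII-L06, 26.3 CPM in XIII-R04 and 26.5 CPM in XII-R04. Every YSR rat was above every YSS rat. In SS rats the level ran from 25.6 CPM over a median of 33.4 CPM to 50.7 CPM, and the SS rat was above the YSS rat in 24 of 30 pairs. The YSR group had the highest mean of the 4, but the highest SS value, in XIII-R03, also lay inside the YSR range. The SR, SS and YSS ranges overlapped. Means were 31.7 ± 7.43 CPM (SD, n = 7) in SR, 48.7 ± 4.58 (n = 5) in YSR, 35.8 ± 8.80 (n = 6) in SS and 28.1 ± 2.55 (n = 5) in YSS rats. The log2 difference was −0.62 (SE 0.14) for SR vs. YSR and 0.34 (SE 0.15) for SS vs. YSS, and 0.77 (SE 0.16) for YSR vs. YSS against −0.20 (SE 0.14) for SR vs. SS. The log2 interaction was −0.96 (SE 0.20, adjusted p = 0.472 in edgeR), with −1.20 in cohort XIII and −0.81 in cohort XII. Its DESeq2 adjusted p-value was 0.0168, and without the SR rat XII-R07 edgeR's log2 interaction was −1.09 with an adjusted p-value of 0.0402.

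Among positive interactions the smallest p-value belonged to ENSRNOG00000011305, on chromosome 7 from 120393254 to 120403523 on the minus strand, with 5 exon blocks and 3029 exonic bases. Another annotated gene overlaps its span but not its exons. Its levels were close together in all groups. The YSS rats had the highest mean, but the SR and SS ranges reached into theirs. The YSS levels were 69.6 CPM in XIII-L02, 71.4 CPM in XIII-L04, 66.7 CPM in XIII-L06, 65.9 CPM in XIII-R04 and 71.8 CPM in XII-R04. YSR rats had 58.5 CPM in XIII-R08, 56.6 CPM in XIII-R10, 65.7 CPM in XII-R02, 57.7 CPM in XII-R06 and 60.8 CPM in XII-R10. The yoked groups did not overlap, although the highest YSR and the lowest YSS value were adjacent. SR rats ran from 59.6 CPM over a median of 64.8 CPM to 71.7 CPM, and SS rats from 50.6 CPM over a median of 61.9 CPM to 68.0 CPM. Both METH groups overlapped with their yoked groups: the SR rat was above the YSR rat in 29 of 35 pairs, and the SS rat above the YSS rat in 2 of 30. Means were 65.4 ± 4.32 CPM (SD, n = 7) in SR, 59.9 ± 3.61 (n = 5) in YSR, 61.0 ± 6.38 (n = 6) in SS and 69.1 ± 2.66 (n = 5) in YSS rats. The log2 difference was 0.13 (SE 0.05) for SR vs. YSR and −0.20 (SE 0.05) for SS vs. YSS, and the log2 interaction 0.33 (SE 0.07, adjusted p = 0.472 in edgeR). It was 0.34 within cohort XIII and 0.26 within cohort XII, where the unadjusted p-value of 0.0512 was above the threshold. With the libraries of letter R alone it was 0.19, with an unadjusted p-value of 0.0657.

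ENSRNOG00000058276 had a large positive interaction at a low level. It is a short gene on chromosome 19, from 26416818 to 26417597 on the plus strand, with 2 exon blocks and 315 exonic bases, and its counts ran from 6 to 71 per library. YSR rats were low throughout, with 0.535 CPM in XIII-R08, 0.548 CPM in XIII-R10, 0.373 CPM in XII-R02, 0.598 CPM in XII-R06 and 0.558 CPM in XII-R10. YSS rats had 0.753 CPM in XIII-L02, 0.966 CPM in XIII-L04, 3.82 CPM in XIII-L06, 3.63 CPM in XIII-R04 and 2.46 CPM in XII-R04. Every YSS rat was above every YSR rat, and the YSS rats themselves were split into 2 lower and 3 higher values. SR rats ran from 0.658 CPM over a median of 1.04 CPM to 2.86 CPM, all above the YSR rats. SS rats ran from 0.332 CPM over a median of 0.626 CPM to 2.45 CPM, and the SS rat was above the YSS rat in 5 of 30 pairs. Levels therefore spread widely within SR, SS and YSS rats and narrowly within YSR rats. Means were 1.58 ± 0.939 CPM (SD, n = 7) in SR, 0.522 ± 0.0870 (n = 5) in YSR, 0.902 ± 0.805 (n = 6) in SS and 2.33 ± 1.44 (n = 5) in YSS rats. The log2 difference was 1.58 (SE 0.51) for SR vs. YSR and −1.55 (SE 0.47) for SS vs. YSS. The log2 interaction was 3.13 (SE 0.70, adjusted p = 0.472 in edgeR), with an adjusted p-value of 0.0171 in DESeq2, and was 3.48 in cohort XIII and 2.30 in cohort XII.

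**Figure D1:**
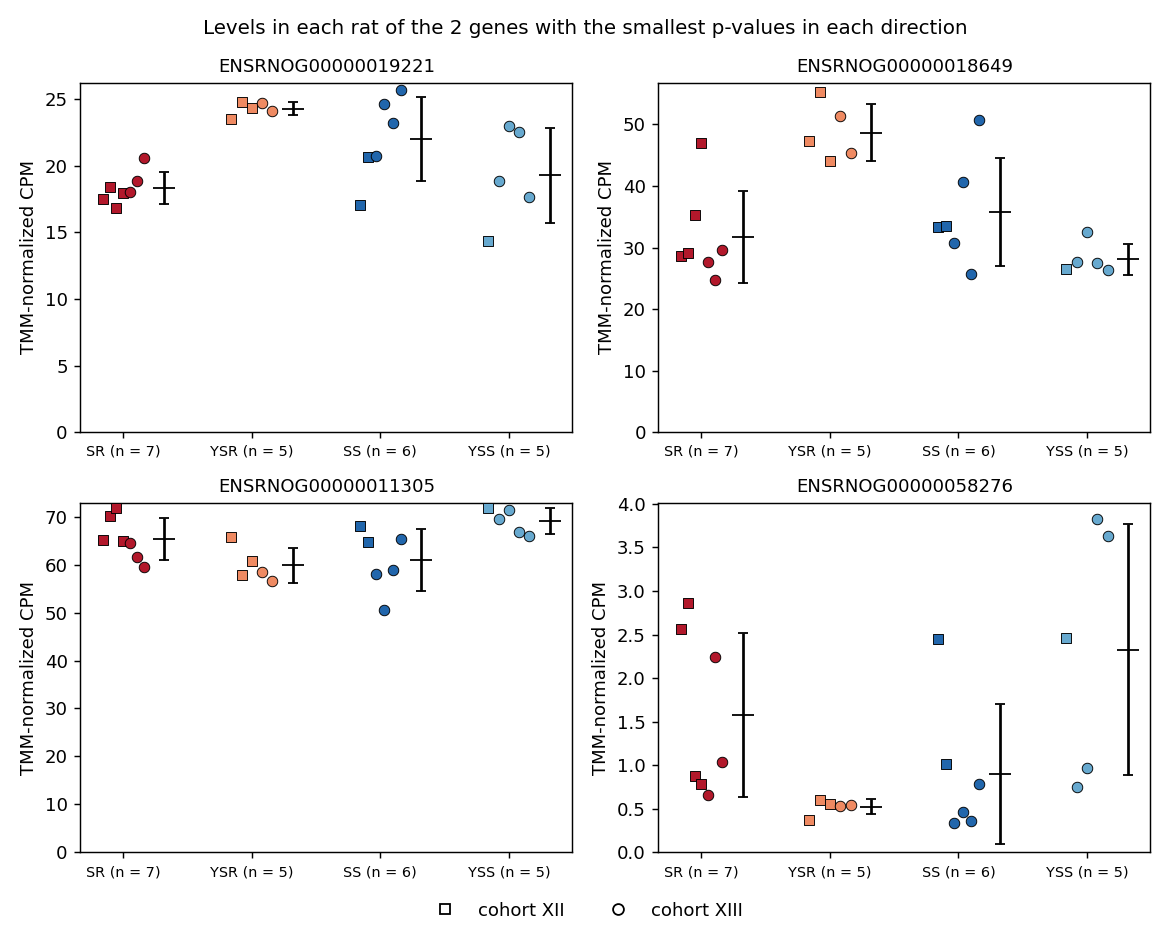
TMM-normalized CPM of the 2 genes with the smallest p-value in each direction, 1 point per rat, with squares for cohort XII, circles for cohort XIII and the mean ± SD beside each group. YSR and YSS rats do not overlap in any of the 4 genes, and SR and YSR rats do not overlap in ENSRNOG00000019221 and ENSRNOG00000058276. The genes were chosen on a contrast that holds these groups. Over all 15643 genes tested SR and YSR rats did not overlap for 86 (0.55%), and the share for YSR and YSS rats is not given here.

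In all 4 genes the difference between the yoked groups was larger than that between the METH groups and of opposite sign. Choosing genes on the interaction favours opposite signs by itself. The log2 difference for YSR vs. YSS was 0.42 (SE 0.09) in ENSRNOG00000019221, 0.77 (SE 0.16) in ENSRNOG00000018649, −0.26 (SE 0.06) in ENSRNOG00000011305 and −2.40 (SE 0.54) in ENSRNOG00000058276. The log2 difference for SR vs. SS was, in the same order, −0.21 (SE 0.08), −0.20 (SE 0.14), 0.07 (SE 0.05) and 0.72 (SE 0.45). The larger yoked difference was not seen over the 901 genes at an unadjusted p-value under 0.05. Their median size of difference was 0.14 for YSR vs. YSS and 0.14 for SR vs. SS. Of them, 241 passed in YSR vs. YSS and 356 in SR vs. SS, against 552 and 958 of all genes tested. For the 12 negative genes with the smallest p-values the medians were 0.20 and 0.21, and for the 12 positive ones 0.30 and 0.20. The unadjusted p-values of the 4 interactions were 1.96e-05, 7.56e-05, 0.00015 and 0.000151. Over the alternatives run, the adjusted p-value ran from 0.00656 to 1.0 for ENSRNOG00000019221, from 0.0168 to 1.0 for ENSRNOG00000018649, from 0.05002 to 1.0 for ENSRNOG00000011305 and from 0.0171 to 1.0 for ENSRNOG00000058276, with the lowest in DESeq2. In whole tissue, fewer cells of a type and less RNA per cell cannot be told apart, which holds for every gene here.

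The 24 genes with the smallest p-values, 12 in each direction, had modest differences in most cases. Among the 12 negative ones the log2 interaction lay between −1.32 and −0.26 (median −0.42), made up of SR vs. YSR differences between −0.62 and −0.20 (median −0.31) and SS vs. YSS differences between 0.02 and 0.87 (median 0.15). The mean level was highest in YSR rats for 9 of these 12 genes and in SS rats for 3, and it was lowest in SR rats for 11 and in YSS rats for 1. Among the 12 positive ones the log2 interaction lay between 0.30 and 3.13 (median 0.46), with SR vs. YSR differences between 0.09 and 1.58 (median 0.24) and SS vs. YSS differences between −1.55 and −0.09 (median −0.28). Here the mean level was highest in YSS rats for 8 genes and in SR rats for 4, and lowest in YSR rats for 10 and in SS rats for 2. Over all 15643 genes tested the mean was highest in YSR rats for 3909 and in YSS rats for 3474, and it was lowest in SR rats for 4205, in YSR rats for 3863, in SS rats for 3611 and in YSS rats for 3964. SR and YSR rats did not overlap for 4 of the 24 genes (16.7%), against 86 of the 15643 genes tested (0.55%), and SS and YSS rats did not overlap for 1 (4.17%), against 51 (0.326%). Genes chosen for a small p-value in the interaction separate these groups by construction.

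Over all 901 genes at an unadjusted p-value under 0.05, METH rats lay on opposite sides of their yoked partners in the 2 arms for 848 genes (94.1%), against 49.1% of all genes tested, a share that selection on the interaction raises by itself. For 385 of them SR rats were above YSR rats and SS rats below YSS rats, and for 463 the reverse held. The genes whose difference went the same way in both arms, but by unequal amounts, numbered 24 with METH rats higher and 29 with METH rats lower. The unadjusted threshold was passed by SR vs. YSR alone for 391 of the 901 genes, by SS vs. YSS alone for 212, by both for 25 and by neither for 273. Over all 15643 genes tested these numbers were 1216, 687, 85 and 13655, and selection on the interaction raises the shares among the 901 genes too. Among the 901 genes the median size of the log2 difference was 0.16 for SR vs. YSR and 0.12 for SS vs. YSS, against 0.07 and 0.06 over all genes tested. Among the 500 negative interactions the mean level was highest in YSR rats for 267 genes and in SS rats for 232, and among the 401 positive ones in SR rats for 208 and in YSS rats for 193. The sign of the interaction largely fixes which groups can be highest. Over all genes tested the mean was highest in SR rats for 4218 and in SS rats for 4042.

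**Figure D2:**
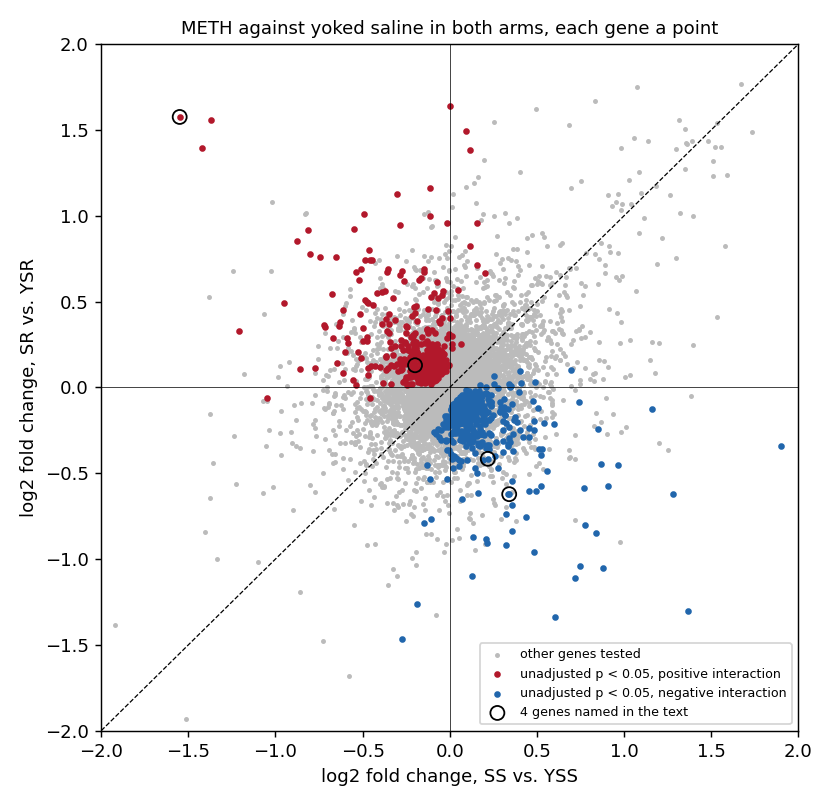
Log2 fold change of SS vs. YSS (x axis) against that of SR vs. YSR (y axis) for 15632 of the 15643 genes tested, each gene a point, with the 11 genes beyond a log2 value of 2 on either axis not shown. Genes with an interaction at an unadjusted p-value under 0.05 lie away from the dashed line of equal change, mostly in the quadrants of opposite sign.

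Across all genes tested, the log2 differences of the arms had a Pearson correlation of 0.18, and of 0.33 over the 10091 genes with at least 10 CPM. This describes genes within the same set of libraries and is no test, since genes are not independent replicates. The log2 interaction was under 1.7-fold for 98.0% of genes, and its standard error had a median of 0.12, compared with 0.09 for SR vs. YSR and 0.09 for SS vs. YSS.

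The large interactions belonged to low-expressed genes. Of the 110 genes at an unadjusted p-value under 0.05 and at least 1.7-fold, 67 had a mean under 1 CPM, 41 lay between 1 and 10 CPM, 2 between 10 and 100 CPM and 0 at 100 CPM and over. At 100 CPM and over, 165 of 2227 genes (7.41%) passed the unadjusted threshold, with a median size of the log2 interaction of 0.19, and under 1 CPM 69 of 1333 genes (5.18%) passed with a median size of 1.19. The median standard error was 0.07 in the first and 0.49 in the second of these classes. Among genes with at least 1 CPM, the 4 largest positive log2 interactions at an unadjusted p-value under 0.05 lay between 2.71 and 6.86, with mean levels between 1.18 and 9.44 CPM and edgeR adjusted p-values between 0.472 and 0.842. Cohort XII alone gave 1 of these 4 the opposite sign, and cohort XIII alone gave a value for 3 of them, all positive. The 4 largest negative ones lay between −1.69 and −1.12, between 3.48 and 5.72 CPM, with an edgeR adjusted p-value of 0.842 for each. They were larger in cohort XII alone, between −3.64 and −1.59 (median −2.55), than in cohort XIII alone, between −1.08 and −0.12 (median −0.39).

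Each cohort was also fitted alone. The 24 genes with the smallest p-values had the same sign in both cohorts, and 13 of them passed the unadjusted threshold in both, but they were chosen on the pooled libraries. Over the 15786 genes tested in both cohorts, 437 (2.77%) passed in cohort XIII and 455 (2.88%) in cohort XII. Of these, 25 genes (0.158% of those tested) passed in both, 18 with the same sign and 7 with opposite signs. Across these genes the log2 interactions of the cohorts had a Pearson correlation of −0.05, and of −0.03 over the 10091 genes with at least 10 CPM. These correlations are over all genes, most of them with differences within their error, and describe no agreement or disagreement of single genes.

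Gene groups could be formed from the positions in the tables. The mitochondrial genome encodes subunits of the respiratory chain and of ATP synthase. Its 13 genes of more than 200 bases were chosen by length and taken as these protein-coding genes, which could not be checked by name. With edgeR, 0 of the 13 passed an unadjusted p-value of 0.05 for the interaction, against 5.76% of all genes tested, and DESeq2 likewise listed 0. Their log2 interactions lay between −0.13 and 0.07 (median −0.01), 4 positive and 9 negative, with a smallest unadjusted p-value of 0.418. The sign of this median was not stable: with 1 library left out it ran from −0.08 (without SR XII-L05) to 0.04 (without SR XII-R05), and it was −0.07 in cohort XII alone and −0.24 with letter R alone. The median log2 difference was −0.06 for SR vs. YSR and −0.03 for SS vs. YSS. In either arm 0 of 13 passed the unadjusted threshold, against 8.32% of all genes tested in SR vs. YSR and 4.94% in SS vs. YSS. With only 13 genes, 0 lies near these shares. Of the 16 short mitochondrial genes tested, 4 passed the unadjusted threshold, all positive, with a smallest p-value of 0.0216, against 5.76% of all genes tested. That number was 2 without the YSS rat XIII-L06, 2 with the letter as a further covariate, 2 without both YSR XIII-R08 and SS XII-L03, 1 with at least 10 counts in every library and 1 in cohort XIII alone. With letter R alone edgeR listed 0 of them, and in cohort XII alone 3, of which 1 was positive.

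With all 23 libraries, the median interaction was lower in long genes than in short ones, a difference that was not tested. Among 112 genes that span 500 kb or more, a class that in brain includes many neuronal adhesion and synaptic genes, the median log2 interaction was −0.09, and 11 (9.82%, against 5.76% of all genes) passed the unadjusted threshold, 10 negative and 1 positive. Among 1870 genes of 100 to 500 kb the median was −0.04, with 73 negative and 32 positive genes past the threshold (5.61%). Among 5036 genes under 10 kb the median was 0.00, with 118 negative and 134 positive (5.0%). In genes of 500 kb or more the median log2 difference was −0.05 for SR vs. YSR and 0.04 for SS vs. YSS. The share of all counts on these genes was 0.868% ± 0.0569 (SD, n = 7) in SR, 0.901% ± 0.0238 (n = 5) in YSR, 0.915% ± 0.0786 (n = 6) in SS and 0.898% ± 0.0363 (n = 5) in YSS rats. These ranges overlapped, and the highest share, 1.05%, belonged to the SS rat XIII-L05. The number of 11 genes moved with single rats: it was 3 without that rat, 4 without YSR XII-R02, 5 without YSR XII-R10 or YSS XIII-L04, 6 without SR XII-L05 or YSR XII-R06, 7 without SR XIII-R07 or YSS XIII-L02, and 18 without YSR XIII-R08. It was 7 without the cohort covariate. The median stayed below 0 without each library, between −0.12 and −0.06. Within cohort XIII the median was −0.06, with 1 gene past the threshold, a positive one, and within cohort XII it was −0.04, with 2 genes past it and 1 of them negative. With the libraries of letter R alone the median was 0.00, and 3 genes passed, 1 of them negative.

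By chromosome, the share of genes past the unadjusted threshold, 5.76% over all genes with 401 positive and 500 negative, lay between 4.73% on chromosome 10 and 8.09% on chromosome 6 among the numbered chromosomes. Chromosome 1 had 60 positive and 34 negative genes, and chromosome 2 had 13 positive and 44 negative, both picked after their values were seen. On chromosome X 39 of 538 genes (7.25%) passed, 13 positive and 26 negative. Differences between chromosomes were not tested.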

How the data were processed

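Poly(A)-enriched RNA was sequenced from 1 brain sample per rat. Per the labels, the authors processed reads with bcl2fastq 2.17, Trimmomatic 0.36, STAR 2.5.2b and featureCounts of Subread 1.5.2, and deposited raw counts per gene, 1 table per library. The genome build and the use of strand are not given in the sources used here, so that reads of overlapping or near-identical genes may be shared. The tables hold 32552 Ensembl identifiers, of which 0 could be paired with symbols, because the gene table at hand lists 0 Ensembl identifiers. The 11 gene lists written by symbol, the marker lists and the PCR-tested genes of the study were therefore not analysed here, and identifiers are printed for the 2 smallest p-values in each direction.

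Groups came from the titles, and the codes XII and XIII there were taken as cohorts. Counts of the 23 libraries were fitted by quasi-likelihood in edgeR 4.0.16 (R 4.3.3) with group and cohort as factors and 18 residual degrees of freedom, after TMM normalization and the filterByExpr filter. This left 15643 genes. Adjusted p-values are Benjamini-Hochberg values over these genes, and fold changes come from the fit. Components used log2 CPM with a prior count of 2. Over 11827 genes with at least 50 counts in each library, chi-square per degree of freedom was 5.07 to 27.0 for 56 pairs of libraries within groups and 4.8 to 33.0 for 197 pairs between groups, above the value of sampling noise, so that each library was taken as a separate one. Since the sources do not state which yoked rat was tied to which METH rat, the yoked pairs were not modelled. The code was tested on simulated data. Alternatives were DESeq2 1.42.0, median-ratio size factors, other count filters, other covariates, all 30 libraries, each cohort, letter R, and each library left out. The comparison, the lists and the tests were chosen with earlier results of these data known.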

Additional observations from a re-analysis of the deposited data

Results flagged for a closer look

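In 44 groups of values examined, 5 values lay farther from the rest of their group than Dixon's critical value at a level of 0.05, where 2.2 are expected by chance. The groups of values share libraries and include the named genes, which were chosen for small p-values, so that 2.2 is only a rough guide. The YSR rat XIII-R08 lay at −18.6 on the first component, with the other YSR rats between 11.1 and 21.4. The SS rat XII-L03 lay at 33.3 on the third component, with the next SS rat at 3.36. The same SS rat had 2.45 CPM of ENSRNOG00000058276, with the next SS rat at 1.01 CPM, and without it the log2 interaction of that gene was 3.56 instead of 3.13. For the same gene the YSR rat XII-R02 had 0.373 CPM, below the 0.535 to 0.598 CPM of the other YSR rats. For ENSRNOG00000018649 the YSS rat XIII-L04 had 32.5 CPM, above the next YSS rat at 27.6 CPM. The part that these libraries have in the numbers of genes is given by the values without them.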

How the results depend on the processing

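The interaction of each named gene had the same sign in every alternative run and without each of the 23 libraries: between −0.69 and −0.55 for ENSRNOG00000019221, −1.09 and −0.82 for ENSRNOG00000018649, 0.28 and 0.36 for ENSRNOG00000011305 and 2.84 and 3.56 for ENSRNOG00000058276 with 1 library left out. Over the other alternatives they lay between −0.94 and −0.54, −1.20 and −0.81, 0.19 and 0.36, and 2.30 and 3.63. The lowest value for ENSRNOG00000011305, 0.19 with letter R, had an unadjusted p-value of 0.0657, and in cohort XII that p-value was 0.0512. ENSRNOG00000058276 was not tested with at least 10 counts required in every library. The number of genes at an adjusted p-value under 0.05, 0 in edgeR, was 3 in DESeq2 and between 0 and 1 with 1 library left out (1 without the SR rat XII-R07). The number at an unadjusted p-value under 0.05, 901 with all libraries, was 445 in cohort XIII, 481 in cohort XII and 459 with letter R, all with fewer libraries, and lay between 669 (without YSS XIII-L04) and 1262 (without YSR XIII-R08) with 1 left out. With at least 1.7-fold change in addition, 110 became 523 when every gene with a count was tested, 25 with at least 10 counts in every library, 227 in cohort XII, 177 with letter R, and between 103 and 169 with 1 library left out (169 without YSR XIII-R08). Leaving out both YSR XIII-R08 and SS XII-L03, an alternative chosen after seeing the data, gave 167 such genes, and 1298 (8.25%) at the unadjusted threshold alone. SR vs. YSR, with 1301 genes, had 718 in cohort XIII, where SS vs. YSS, with 772 in all, had 1013. SS vs. YSS had 1187 when every gene with a count was tested and 431 in cohort XII. The causes of these changes were not tested beyond what fewer libraries or other genes tested imply. These numbers of genes for the interaction, SR vs. YSR and SS vs. YSS stayed within 1.5 times of those from all 23 libraries in the other alternatives. Smaller numbers, such as the 3 genes at an adjusted p-value under 0.05 in SR vs. YSR (between 0 and 80), the long genes and the short mitochondrial genes, moved more. Genes under 1 CPM had a median standard error of 0.49, which holds counting error and variation between rats together.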

Other observations

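The CT rats (n = 7), which received saline and no foot-shocks, were not part of the contrast. ENSRNOG00000019221 had 20.8 ± 4.20 CPM (SD) in them, from 14.6 CPM over a median of 20.3 CPM to 26.1 CPM, a range that holds all YSR and all SR levels. ENSRNOG00000018649 had 33.0 ± 9.53 CPM, from 26.3 CPM over a median of 28.4 CPM to 48.1 CPM. ENSRNOG00000011305 had 66.6 ± 6.35 CPM, from 59.9 CPM over a median of 64.5 CPM to 77.1 CPM. ENSRNOG00000058276 had 0.934 ± 0.997 CPM, from 0.157 CPM over a median of 0.645 CPM to 3.09 CPM, with the lowest value close to the floor of 3 counts.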
